A study of Danio rerio with 11 samples.

Results

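The nuclear genes of the mitochondrial respiratory chain and ATP synthase were examined in livers of zebrafish larvae. Members were the genes whose symbols in the array annotation start with nduf, uqcr, sdh or atp5, or with cox followed by a digit from 4 to 8, and each gene was read from 1 probe set, the one with the highest mean level across the 11 arrays. The rule gave 85 genes of 7792 named on the array. Of these, 31 encode complex I subunits, 4 complex II, 7 complex III, 16 complex IV, 18 complex V with its inhibitors, and 9 are assembly factors of complexes I and II. A further 2 probe sets that match the rule carry several symbols and were not assigned to a gene. Of the 13 subunits encoded by mitochondrial DNA, 0 were found by symbol among the named genes.

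The respiratory chain sits in the inner mitochondrial membrane. Complex I takes electrons from NADH and complex II from succinate, both pass them to ubiquinone, and complexes III and IV carry them on through cytochrome c to oxygen. Complexes I, III and IV pump protons, and complex V lets the protons flow back to make ATP. Hepatocytes are rich in mitochondria and draw on this ATP for gluconeogenesis and protein secretion. The roles given below for single subunits are known mainly from mammals and yeast.

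Livers were dissected at 4 days after fertilisation, and RNA was amplified in 2 rounds before hybridisation to 1-colour Affymetrix zebrafish arrays. The 4 controls were ahcy +/+ larvae that received vehicle in the yolk at 2 days. The 4 azacytidine samples were ahcy +/+ larvae that received 1 mM azacytidine by the same route, a cytidine analogue that traps DNA methyltransferases. The 3 mutants were ahcy -/- larvae that received vehicle. The gene ahcy encodes S-adenosylhomocysteine hydrolase, which clears the by-product of methylation reactions, and the labels do not describe the mutant allele. All 3 groups shared the yolk injection, and the labels do not say how many larvae were pooled or whether samples came from separate clutches, so the p-values reflect the scatter of these particular samples, part of which may be technical.

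Values below are log2 levels, 1 per probe set and array, listed in the order controls 1, 2, 4 and 8, azacytidine samples 1, 2, 5 and 6, and mutants 3, 4 and 6. A difference is a difference of group means on that scale ± its standard error. It was called when the adjusted p from a limma fit over all 12784 probe sets was under 0.05. Levels of different probe sets are not read as relative amounts of transcript. Array medians averaged 6.04 in controls, 5.93 with azacytidine and 6.15 in mutants. The median difference over all probe sets was 0.08 for mutants against controls, -0.06 for azacytidine against controls and 0.14 for mutants against azacytidine, and after centring arrays on their medians it was -0.03, 0.05 and -0.08. Each comparison with controls used the same 4 control arrays.

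Markers of several cell types, hepatocytes included, differed between the groups or on single arrays. The mean of 16 measured hepatocyte markers was 11.43 to 11.75 in controls, 11.99 to 12.30 with azacytidine and 9.75 to 10.56 in mutants, where 10 fell against controls. The mean of 23 skeletal muscle markers was 8.46 to 9.36 in controls, 7.86 to 8.56 with azacytidine and 10.04 to 10.63 in mutants, where 13 rose and 1 fell against controls. Of 13 epidermis markers 10 rose in mutants. Over all probe sets 5.87% were called lower in mutants than in controls and 6.23% higher. Of 17 neural markers 0 were called in mutants against controls, and their mean was 5.73 to 8.36 in controls, 5.14 to 5.61 with azacytidine and 6.91 to 7.73 in mutants. The mean of 4 measured cardiac markers was 10.92 in mutant 4, 5.68 and 4.34 in mutants 3 and 6, and 3.95 to 6.49 on the other arrays. Control 2 stood apart in 13 exocrine pancreas markers, with a mean of 9.80 against 5.08 to 7.42 on the other arrays. In each of these lists 0 markers lay below the array's 10th percentile on all arrays.

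**Figure D1:**
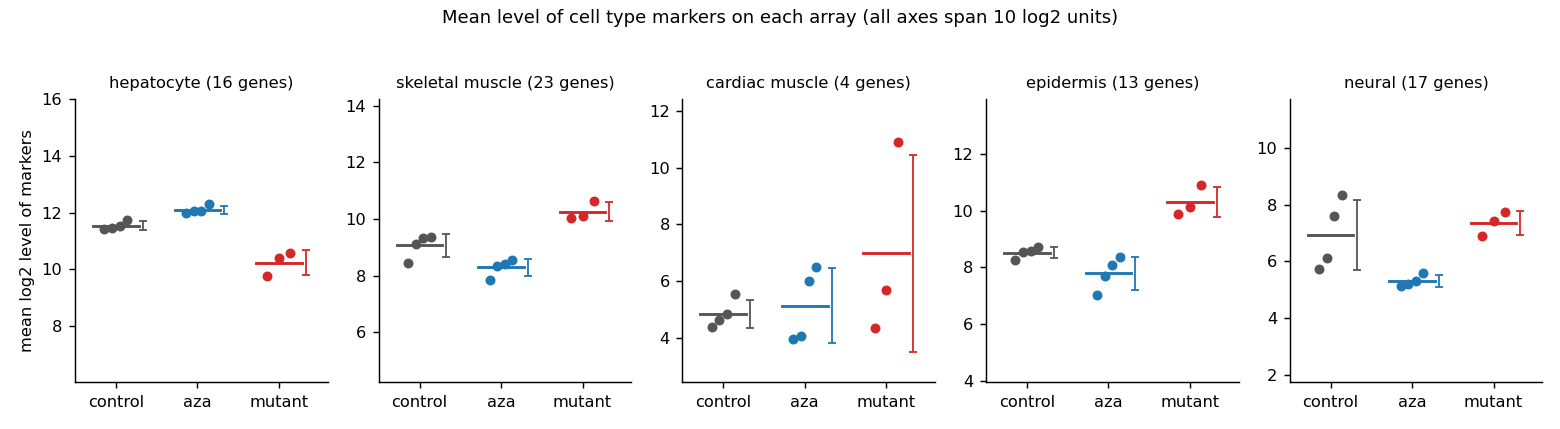
Mean log2 level of the measured markers of 5 cell types on each array (points), with the group mean (line) and SD (bar). Hepatocyte markers were lowest and skeletal muscle and epidermis markers highest in the 3 mutants, and cardiac markers stood at 10.92 in mutant 4.

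In ahcy mutants, 27 of the 85 genes fell against controls and 0 rose. Complex I accessory subunits made up 16 of the 27, and ATP synthase subunits 6 more. The changes were moderate, with a median difference of -0.44 over all 85 genes and the largest fall at 3.17-fold. Over all probe sets tested 5.87% were called lower and 6.23% higher. The difference was below 0 for 75 of the 85 genes, against 5514 of all 12784 probe sets. At unadjusted p under 0.05, 52 of the 85 were lower and 0 higher, against 1446 lower and 1947 higher of all probe sets. All 3 mutants lay below all 4 controls for 44 of the 85 genes, against 10.6% of all probe sets. In tissue RNA, fewer cells of a type and less RNA per cell cannot be told apart.

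Most members lie high on the array scale, where lower calls were more frequent in general. Among the 68 members with a mean level above 10, 22 fell, which is 32.4%, against 22.1% of all 878 probe sets above that level. The 3 mutants lay below the 4 controls for 37 of these 68 members, or 54.4%, against 29.5% of those 878 probe sets. The median difference was -0.42 for the 68 members and -0.07 for the 878 probe sets.

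The calls changed with the arrays used and when marker levels were put in the fit. Leaving out mutant 6 left 10 of the 27 called, and the number called lower was 12 without control 2, 16 without control 1 and 16 without control 8. With the per-array mean of muscle, epidermis and neural markers as a covariate, 0 of the 85 genes were called lower, as were 0 with the skeletal muscle mean alone, an alternative chosen after seeing the data. These fits called 93 and 35 of all 12784 probe sets, and the median difference of the 85 genes was -0.29 and -0.32. The skeletal muscle means of mutants and controls did not overlap, while their neural means did. Epidermis means did not overlap either, at 8.25 to 8.72 in controls and 9.88 to 10.91 in mutants. Marker levels and genotype thus went together, and these fits cannot tell them apart.

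**Figure D2:**
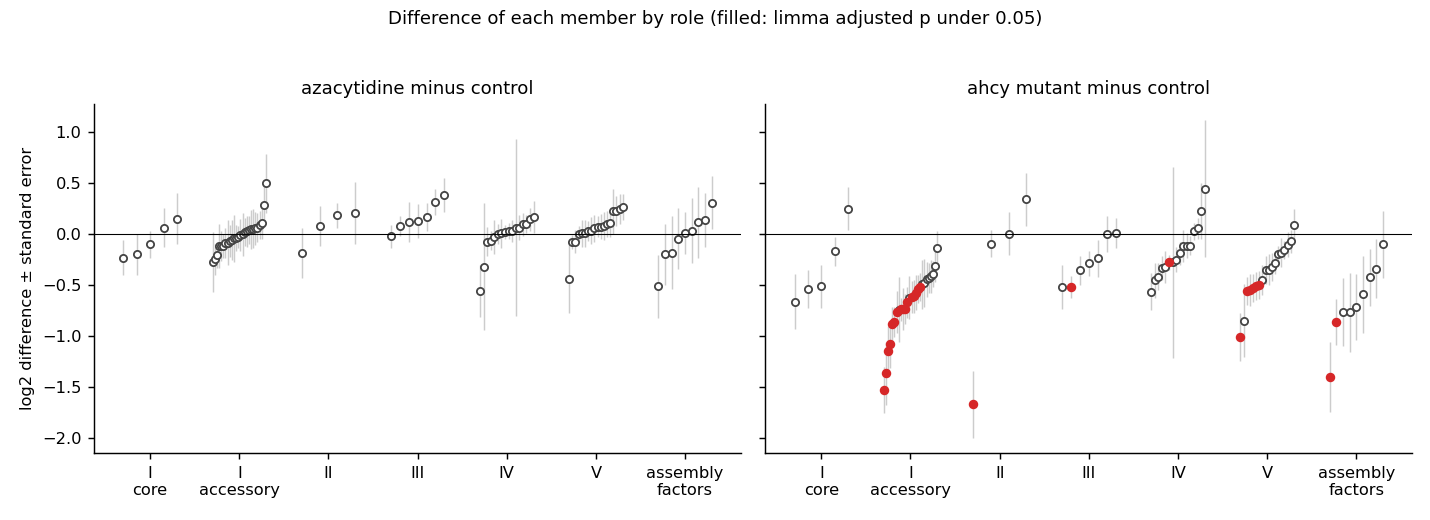
Log2 difference of each of the 85 genes (points, with standard error) by role, for azacytidine minus control on the left and ahcy mutant minus control on the right. Filled points were called: 0 on the left, and 27 on the right, all below 0.

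Complex I, the largest of the sets, had the most members called in mutants against controls, 16 of 31. That is 51.6%, against 5.87% of all probe sets and 22.1% of those with a mean level above 10. Its mean over 31 genes was 11.10 ± 0.07 (SD, n = 4) in controls, 11.09 ± 0.15 (SD, n = 4) in azacytidine samples and 10.47 ± 0.09 (SD, n = 3) in mutants. By array these means were 11.08, 11.15, 11.01 and 11.16 in controls, 11.14, 11.15, 11.19 and 10.86 with azacytidine, and 10.53, 10.53 and 10.37 in mutants. The 3 mutants lay below all 8 other arrays. The difference between mutants and controls was -0.63 ± 0.06 on the log2 scale. All 16 called members are accessory subunits, which surround and stabilise the catalytic core, of 26 measured.

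The accessory subunit ndufb9, of the membrane arm, had the largest fall in complex I. It was at 11.10, 11.14, 11.09 and 10.95 in controls, 11.19, 10.91, 11.46 and 10.72 with azacytidine, and 9.07, 9.62 and 9.94 in mutants. The mutants lay below every other array, and the group means differed by -1.53 ± 0.23, a 2.88-fold lower level (adjusted p = 0.0015). Another membrane arm subunit, ndufb2, was at 10.71, 9.66, 9.30 and 10.36, then 10.51, 10.46, 10.70 and 10.35, then 8.36, 8.64 and 8.93. Controls 2 and 4 were low among the controls, and all mutants were lower still. It fell by 1.36 ± 0.31 (adjusted p = 0.015).

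The small membrane arm subunit ndufa1 was at 9.91, 10.12, 10.06 and 10.02, then 10.04, 10.11, 9.76 and 10.03, then 8.34, 9.49 and 8.81. Mutant 4 was nearest to the controls, and the fall was 1.15 ± 0.25 (adjusted p = 0.012). The membrane arm subunit ndufb4 was at 11.77, 11.93, 11.65 and 11.79, then 11.70, 11.90, 11.78 and 11.86, then 10.59, 11.21 and 10.97. Controls and azacytidine samples overlapped and all mutants lay below them. It fell by 0.86 ± 0.15 (adjusted p = 0.0036).

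In the matrix arm, ndufs4 takes part in the last steps of complex I assembly, and its loss causes Leigh syndrome in humans. It was at 10.80, 11.11, 10.84 and 11.04, then 11.09, 11.19, 11.15 and 10.59, then 10.01, 10.12 and 10.06. The 3 mutants lay close together and below all other arrays. It fell by 0.88 ± 0.18, a 1.85-fold lower level (adjusted p = 0.0076). The matrix arm subunit ndufa2 was at 11.61, 11.87, 11.63 and 11.56, then 11.66, 11.68, 11.59 and 11.61, then 10.98, 10.92 and 10.89. These groups were tight, and ndufa2 fell by 0.74 ± 0.12 (adjusted p = 0.0022). The membrane arm subunit ndufc2 was at 11.84, 11.84, 11.69 and 11.70, then 11.91, 11.81, 11.78 and 11.73, then 10.78, 11.39 and 10.94. It fell by 0.73 ± 0.14 (adjusted p = 0.0076).

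The other 9 called accessory subunits were ndufa10, ndufa11, ndufa13, ndufb10, ndufb5, ndufb6, ndufb7, ndufc1 and ndufs5, with falls from 0.52 for ndufb6 to 1.07 for ndufa11. For all of them the mutants lay below the controls. The other 10 accessory subunits did not pass the test. Among these, ndufa9a differed by -0.13 ± 0.16 and ndufa6 by -0.74 ± 0.32. The membrane arm subunit ndufb8 was at 11.90, 11.94, 11.71 and 11.85 in controls and 11.76, 11.33 and 11.16 in mutants, a difference of -0.43 ± 0.15 (adjusted p = 0.078).

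The 5 measured core subunits hold the NADH site and iron-sulphur clusters, and 0 of them were called. The differences were -0.66 ± 0.27 for ndufv1, the NADH-binding subunit, -0.53 ± 0.19 for ndufv2, -0.51 ± 0.21 for ndufs1, -0.17 ± 0.14 for ndufs7 and 0.25 ± 0.21 for ndufs8a. Of these, 3 had an unadjusted p under 0.05 and were lower, as were 1446 of all 12784 probe sets. A second probe set of ndufv2 was at 8.89, 8.82, 8.32 and 9.29 in controls and 7.17, 7.40 and 6.75 in mutants, and it fell by 1.72 ± 0.36 (adjusted p = 0.010). The call for ndufv2 therefore depended on the probe set. Core and accessory subunits were not tested against each other.

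Probe sets also disagreed for other members. The mitochondrial acyl carrier protein gene ndufab1a differed by -0.49 ± 0.24 on its chosen probe set (adjusted p = 0.21), and its other probe sets by -0.82 and -1.02, the latter called. Its paralogue ndufab1b differed by -0.31 ± 0.17. A second probe set of ndufb6, near 4 in controls, differed by 0.51 ± 0.28 in the opposite direction to the chosen one and was not called. All mutants lay above all controls on it. Against azacytidine it was called higher in mutants (0.84 ± 0.28, adjusted p = 0.043), where the chosen one was called lower. For uqcrc2a of complex III, the chosen probe set was called lower against azacytidine (-0.64 ± 0.22, adjusted p = 0.042). Its second was not (-0.96 ± 0.42, adjusted p = 0.11). Neither probe set of uqcrc2a was called against controls.

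**Figure D3:**
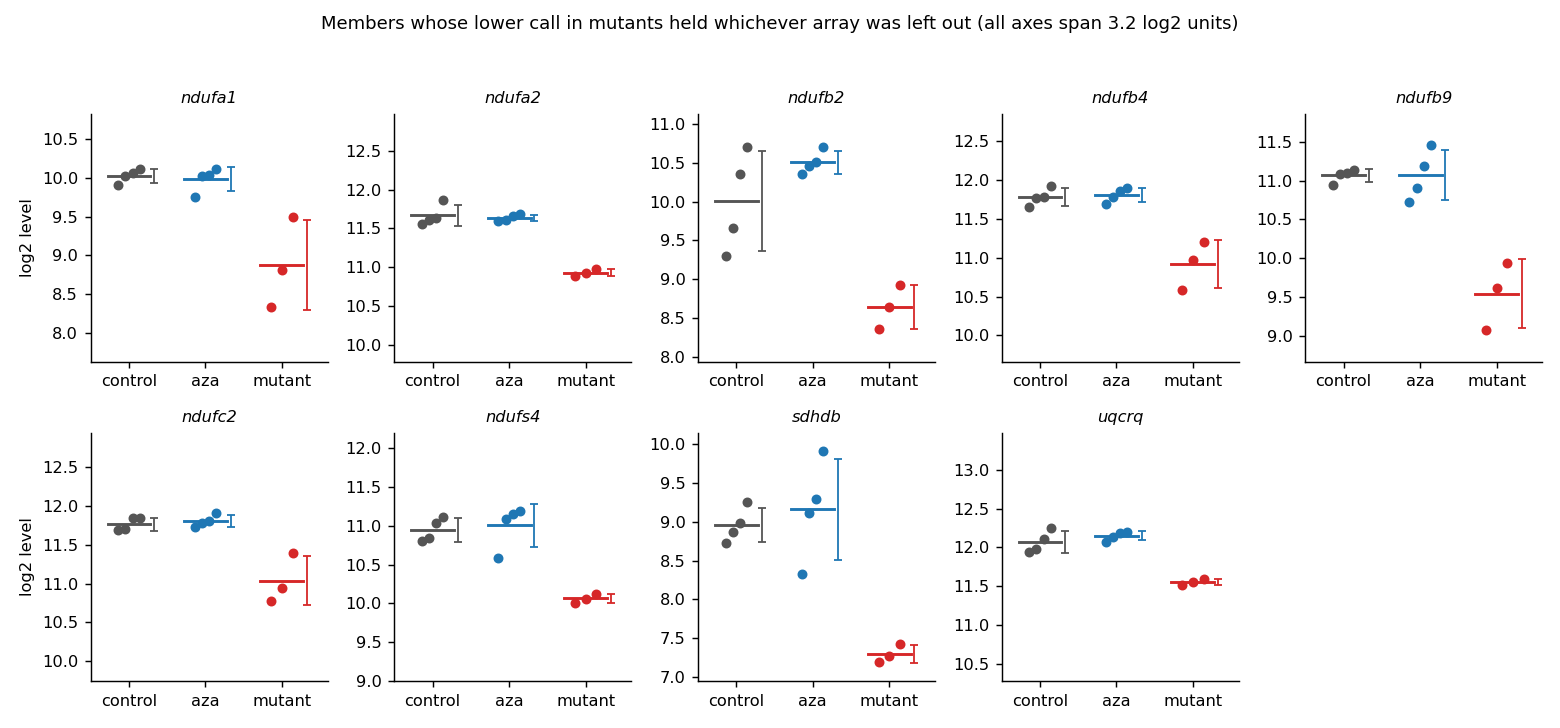
Log2 level on each array (points) of the 9 genes whose call in mutants held whichever of the 11 arrays was left out, with group mean (line) and SD (bar). In each panel the 3 mutants lie below all 4 controls. None of the 9 was called with either marker covariate.

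Of the 27 calls, 9 held whichever of the 11 arrays was left out: ndufa1, ndufa2, ndufb2, ndufb4, ndufb9, ndufc2, ndufs4, sdhdb and uqcrq. The other 18 were lost in at least 1 of these fits. The matching share over all called probe sets was not counted. All 9 were lost with either marker covariate and with the sample number as a fixed block. The call for ndufb2 was also lost with only the 2 groups in the fit, and that for uqcrq without a variance trend. The 9 comprise 7 complex I accessory subunits and 1 subunit each of complexes II and III.

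Complex II, which is also the succinate dehydrogenase of the citrate cycle, had 1 called member of 4. Over all probe sets 5.87% were called lower. The membrane anchor gene sdhdb was at 8.87, 8.73, 8.98 and 9.26 in controls, 9.12, 9.30, 9.91 and 8.33 with azacytidine, and 7.19, 7.42 and 7.27 in mutants. It had the largest fall of all 85 genes, 1.67 ± 0.33 or 3.17-fold (adjusted p = 0.007). The mutants lay close together and below every other array. The other membrane anchor, sdhc, differed by -0.10 ± 0.13, the flavoprotein gene sdha by 0.00 ± 0.21 and the iron-sulphur subunit gene sdhb by 0.34 ± 0.26, and none of these passed the test. The estimates lay below 0 for both anchor genes and at or above 0 for both catalytic genes, but only that of sdhdb was called.

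In complex III, which passes electrons from ubiquinol to cytochrome c, 1 of 7 members fell. That is 14.3%, against 5.87% of all probe sets and 22.1% of those with a mean level above 10. The small subunit gene uqcrq, next to the ubiquinone site, was at 12.11, 12.25, 11.94 and 11.98, then 12.07, 12.14, 12.19 and 12.20, then 11.59, 11.56 and 11.51. Mutants lay close together and below all other arrays, with a fall of 0.52 ± 0.10 (adjusted p = 0.0085). The differences of the core protein genes were -0.52 ± 0.22 for uqcrc2a, -0.24 ± 0.18 for its paralogue uqcrc2b and 0.00 ± 0.18 for uqcrc1. The hinge protein gene uqcrh differed by 0.02 ± 0.15. The Rieske iron-sulphur protein gene uqcrfs1 differed by -0.36 ± 0.14 (adjusted p = 0.12).

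In complex IV, the terminal oxidase, 1 of 16 members fell, or 6.25%, against 5.87% of all probe sets. Most of its members lie above a mean level of 10, where 22.1% of probe sets were called lower. The small subunit gene cox7c was at 12.92, 12.99, 12.99 and 13.07, then 13.05, 13.05, 13.05 and 12.92, then 12.65, 12.81 and 12.69. Its fall of 0.28 ± 0.07 (adjusted p = 0.033) was small, with mutants below all other arrays, and the call was lost in 6 of 11 fits that left out an array. The complex mean was 10.96 ± 0.13 in controls (SD, n = 4) and 10.79 ± 0.26 in mutants (SD, n = 3), with the mutants at 10.84, 11.02 and 10.51. The groups overlapped.

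The paralogue pairs of complex IV did not pass the test in mutants. The genes cox5aa and cox5ab differed by -0.56 ± 0.18 (adjusted p = 0.060) and -0.42 ± 0.13 (adjusted p = 0.061), and the mutants lay below the controls for both. The genes cox6b1 and cox6b2 differed by -0.45 ± 0.17 and 0.03 ± 0.09, and cox7a2a and cox7a2l by -0.33 ± 0.12 and -0.32 ± 0.15. The genes ndufa4a and ndufa4b, whose mammalian counterpart was reassigned from complex I to complex IV, differed by -0.11 ± 0.10 and 0.44 ± 0.67. The latter lay between 1.48 and 4.49 on all arrays.

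The subunit 4 gene cox4i1l had the largest standard error of the 85 genes. It was at 6.99, 8.30, 7.24 and 9.06 in controls, 7.97, 8.77, 6.96 and 8.14 with azacytidine and 8.11, 9.88 and 4.88 in mutants, so its difference of -0.27 ± 0.94 was not informative. The gene cox4i2, the isoform induced by low oxygen in mammals, was at 5.97, 5.75, 6.44 and 5.81, then 5.49, 5.62, 5.36 and 5.28, then 5.76, 6.01 and 6.89. All azacytidine samples lay below all controls and all mutants, but neither difference was called (adjusted p = 0.33 for azacytidine against control, 0.052 for mutant against azacytidine).

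In complex V, 6 of 18 members fell, or 33.3%, against 5.87% of all probe sets and 22.1% of those above level 10. Complex V had 0 members that rose. Its mean was 11.70 ± 0.05 (SD, n = 4) in controls, 11.75 ± 0.10 (SD, n = 4) in azacytidine samples and 11.32 ± 0.16 (SD, n = 3) in mutants. The called genes were atp5pb, atp5pd and atp5pf of the peripheral stalk, atp5f1d of the central stalk, and atp5meb and atp5md, small membrane subunits at the dimer interface. The fall of atp5meb was the largest, 1.01 ± 0.24 (adjusted p = 0.018), with levels of 10.82, 10.57, 10.35 and 10.36, then 10.49, 10.73, 11.15 and 10.63, then 9.22, 10.02 and 9.31. Its paralogue atp5mea differed by -0.32 ± 0.14 and was not called. The other called falls lay between 0.50 and 0.56.

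The gene of the catalytic beta subunit, atp5f1b, differed by -0.07 ± 0.11, and the central stalk genes atp5f1c and atp5f1e by -0.15 ± 0.09 and -0.10 ± 0.12. The genes of the proton-conducting c ring did not pass the test. These differences were -0.35 ± 0.14 for atp5mc1, 0.09 ± 0.16 for atp5mc3a and -0.19 ± 0.08 for its paralogue atp5mc3b. The inhibitor genes atp5if1a and atp5if1b, whose products block ATP hydrolysis, differed by -0.85 ± 0.36 and -0.18 ± 0.14, neither called.

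**Figure D4:**
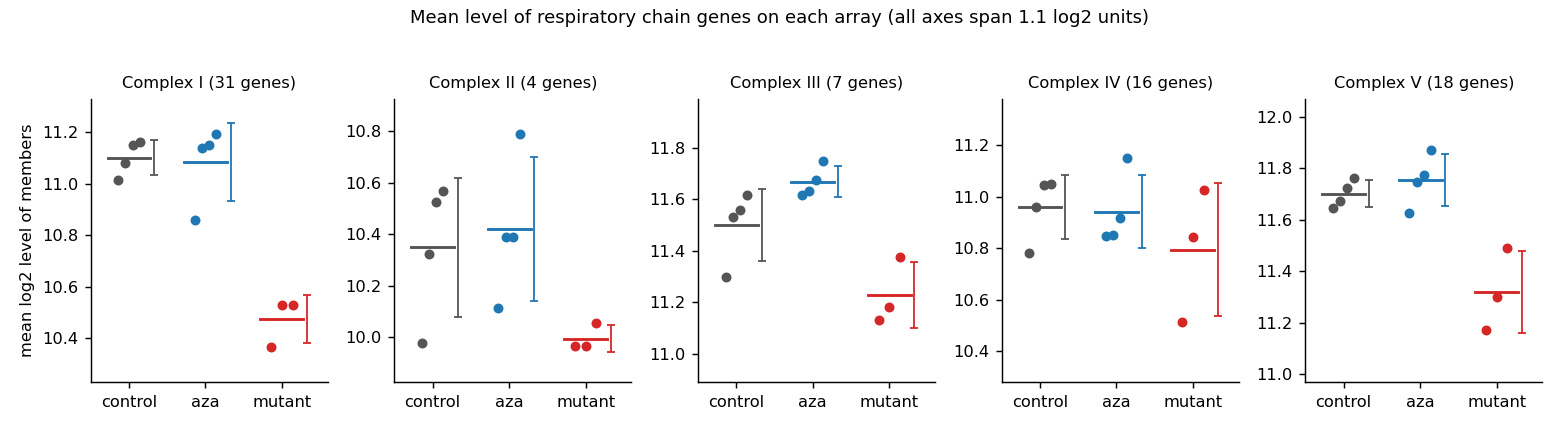
Mean log2 level of the members of complexes I to V on each array (points), with the group mean (line) and SD (bar). The mutants lie below all other arrays for complexes I and V, and overlap the controls for complexes II, III and IV. The complex IV mean includes cox4i1l, whose mutant levels ranged from 4.88 to 9.88, and ndufa4b, whose control levels ranged from 1.78 to 3.91. The overlap for complex IV was not examined without these genes.

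Among the 9 assembly factors, 2 fell, or 22.2%, against 5.87% of all probe sets. The complex I factor ndufaf6 was at 7.89, 7.74, 7.34 and 7.03, then 8.32, 7.48, 7.50 and 6.83, then 6.35, 5.95 and 5.99. It fell by 1.40 ± 0.34, a 2.65-fold lower level (adjusted p = 0.021), with all mutants below all other arrays. The complex II factor sdhaf4, which binds the flavoprotein subunit before assembly, fell by 0.86 ± 0.22 (adjusted p = 0.027). The others ranged from -0.10 ± 0.32 for ndufaf2 to -0.77 ± 0.33 for ndufaf5.

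Over the 85 genes, Pearson's correlation of control level with the difference between mutants and controls was 0.12, as a description. The median difference was -0.22 for the 20 genes with a control mean above 12, with 4 called, and -0.48 for the 36 genes between 11 and 12, with 14 called. It was -0.54 for the 14 genes between 10 and 11, with 6 called, and -0.66 for the 15 genes at 10 or below, with 3 called. Every complex I gene had a control mean below 12, the highest being 11.89 for ndufa12, and every assembly factor lay below 10. The genes above 12 were mainly of complexes IV and V, so level and complex cannot be told apart here. The highest value of any array in the table was 14.21. The part of signal compression near the top of the scale was not tested.

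**Figure D5:**
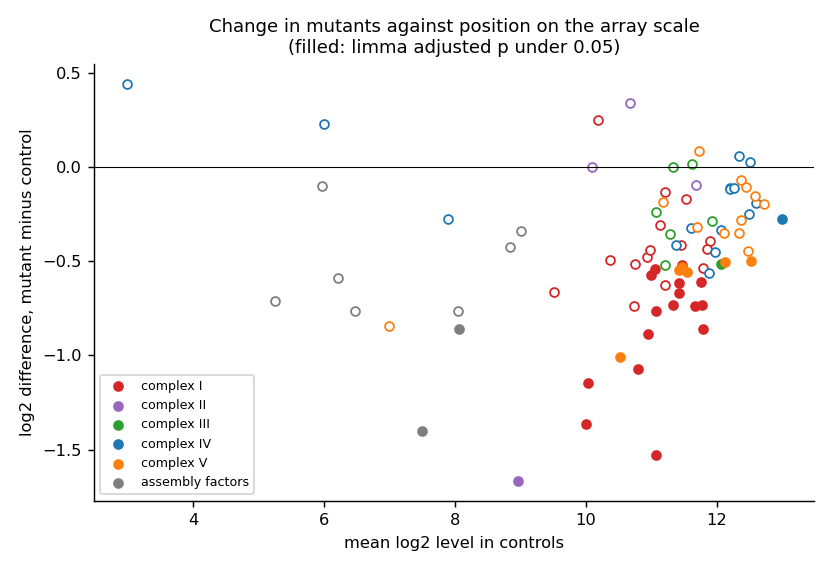
Difference between mutants and controls of each of the 85 genes (log2) against its mean control level (log2), coloured by complex, filled where called. The 20 genes above 12 have a median difference of -0.22 and the 15 at 10 or below one of -0.66. No complex I gene lies above 12, so level and complex cannot be told apart.

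The 3 mutants were not alike. Mutant 6 was the lowest of them for 49 of the 85 genes and mutant 4 the highest for 43. Mutant 4 was the highest for 12 of 18 genes of complex V and 10 of 16 of complex IV, while mutant 3 was the highest for 17 of 31 of complex I. Mutant 4 was also the array with the high cardiac markers, and mutant 6 had the highest skeletal muscle mean (10.63) and the lowest hepatocyte mean (9.75). Without mutant 4 the count of genes that fell was 22, of which 19 were among the 27. The part of the cardiac and hepatocyte markers in the result was not tested. The fits with skeletal muscle markers could not tell marker levels from genotype.

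In azacytidine-treated livers 0 of the 85 genes were called in either direction, and 0.399% of all probe sets were called higher and 0.18% lower. The median difference over the 85 genes was 0.03, with 31 below and 53 above 0. Over all 12784 probe sets 7225 lay below 0 and 5539 above. At unadjusted p under 0.05, 669 of all probe sets were higher and 1270 lower. Of the 85 genes 2 passed that threshold, both higher and both in complex III. These 2 were uqcrc1, with a difference of 0.38 ± 0.16 (adjusted p = 0.29), and uqcrfs1, with 0.32 ± 0.13 (adjusted p = 0.26). The complex means differed by -0.02 ± 0.08 for complex I, 0.07 ± 0.19 for II, 0.17 ± 0.08 for III, -0.02 ± 0.09 for IV and 0.05 ± 0.06 for V. The median standard error of a single gene was 0.15, so small changes could not be detected.

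Within their own complex or role, the highest differences with azacytidine were 0.50 ± 0.29 for ndufb2 in complex I, 0.31 ± 0.26 for sdhaf2 among assembly factors and 0.27 ± 0.13 for atp5md in complex V. The lowest were -0.56 ± 0.26 for cox4i2 in complex IV, -0.51 ± 0.31 for ndufaf5 among assembly factors and -0.44 ± 0.33 for atp5if1a in complex V. The 4 azacytidine levels of atp5md, 11.69, 11.69, 11.77 and 11.78, lay above the 4 control levels, 11.34, 11.66, 11.54 and 11.32. All 4 azacytidine samples lay above all 4 controls for 1 of the 85 genes and below them for 2, against 3.71% and 5.26% of all probe sets. None of these differences passed the test. With azacytidine 1 of 16 hepatocyte markers rose, and 3 of 23 skeletal muscle, 0 of 13 epidermis and 1 of 17 neural markers fell. Over all probe sets 0.399% were called higher and 0.18% lower.

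Mutants were also compared directly with azacytidine samples, using the same mutant and azacytidine arrays as above. Of the 85 genes 38 were lower in mutants and 0 higher, against 11.1% and 18.2% of all probe sets. By complex, 18 of 31 in I, 1 of 4 in II, 3 of 7 in III, 5 of 16 in IV and 9 of 18 in V were lower, together with 2 of 9 assembly factors. The mutants lay below all azacytidine samples for 38 genes, against 13.8% of probe sets. Among the 68 members with a mean level above 10, 32 were lower, or 47.1%, against 29.4% of all probe sets above that level, and the mutants lay below all azacytidine samples for 31, or 45.6%, against 30.9%. For 26 genes the mutants were called lower than both other groups, and for 29 all 3 mutant arrays lay below all 8 others. The matching shares over all probe sets were not counted, and both comparisons share the mutant arrays, so these counts are a description only. Markers differed more here, with 21 of 23 muscle, 12 of 13 epidermis and 12 of 17 neural markers higher in mutants. Lower in mutants were 14 of 16 hepatocyte markers and 1 muscle marker. With either marker covariate 0 of the 85 genes were called.

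Genes called against azacytidine but not against controls included uqcrfs1 (-0.67 ± 0.14, adjusted p = 0.0042) and cox7a2a (-0.48 ± 0.12, adjusted p = 0.011). In cox6b1 the difference was -0.62 ± 0.17 (adjusted p = 0.018). These mutant levels were 11.07, 10.90 and 10.81 for uqcrfs1, below azacytidine levels of 11.70, 11.64, 11.66 and 11.39. The gene cox4i2 was the 1 member of 85 with all mutants above all azacytidine samples, against 23.5% of probe sets (0.78 ± 0.28, adjusted p = 0.052).

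Other mitochondrial pathways were read from lists of genes outside the symbol rule. Over all probe sets 5.87% were called lower and 6.23% higher in mutants against controls, and 0.399% higher with azacytidine. Of 20 further assembly factors 4 fell in mutants and 0 rose, with a median difference of -0.73. The complex I factor tmem126a was at 8.85 to 9.21 in the 4 controls and 6.78, 7.46 and 7.45 in mutants. It fell by 1.76 ± 0.31 (adjusted p = 0.0039). The complex IV factor surf1 fell by 1.54 ± 0.24 (adjusted p = 0.002). The complex I factor timmdc1 was the single gene of these pathway lists called with azacytidine. Its levels were 7.90, 7.59, 6.71 and 6.64 in controls and 8.63, 8.53, 9.86 and 9.29 with azacytidine, without overlap, and it rose by 1.87 ± 0.37 (adjusted p = 0.049).

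Of 12 cytochrome c and coenzyme Q genes 3 fell in mutants and 0 rose, with coq3, a methyltransferase of ubiquinone synthesis that uses S-adenosylmethionine, falling by 1.51 ± 0.32 (adjusted p = 0.011) and coq9 by 1.13 ± 0.24 (adjusted p = 0.012). Of 23 citrate cycle and pyruvate entry genes 3 fell and 1 rose, and the median difference was 0.15. The succinyl-CoA ligase genes suclg1 and suclg2 fell by 2.46 ± 0.21 (adjusted p = 4.5e-05) and 1.89 ± 0.38 (adjusted p = 0.0079), and idh2 rose by 1.88 ± 0.43 (adjusted p = 0.015).

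Of 17 genes of carriers, outer membrane channels and mitochondrial creatine kinases 3 fell and 2 rose. The uncoupling protein family gene slc25a27 fell by 3.25 ± 0.48 (adjusted p = 0.0015), with mutants at 7.23, 7.98 and 5.47 and controls between 9.90 and 10.39, and the carnitine carrier gene slc25a20 fell by 0.92 ± 0.25 (adjusted p = 0.031). The uncoupling protein genes ucp2 and ucp3 rose by 1.76 ± 0.43 (adjusted p = 0.020) and 2.61 ± 0.62 (adjusted p = 0.018). For ucp3 the groups overlapped, with mutant 3 at 6.35 and control 8 at 6.48. In mammals ucp3 is mainly a muscle gene, and the skeletal muscle markers were also higher in these mutants. The part of muscle RNA in the ucp3 difference was not tested.

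Of 23 glycolysis and lactate genes 5 fell and 2 rose. The liver pyruvate kinase gene pklr fell by 4.21 ± 0.42 (adjusted p = 0.00015) and tpi1b by 0.85 ± 0.10 (adjusted p = 0.0003), while aldoab and pfkma, muscle-type enzyme genes, rose by 1.32 ± 0.35 (adjusted p = 0.030) and 0.87 ± 0.25 (adjusted p = 0.043). Of 16 genes of mitochondrial shape and turnover 3 fell, among them phb2b by 1.84 ± 0.37 (adjusted p = 0.0084) and the cristae organiser chchd3a by 0.83 ± 0.19 (adjusted p = 0.016). Of 12 regulators of mitochondrial gene expression 0 were called, by limma at adjusted p under 0.05, and 0 had an unadjusted p under 0.05. At that unadjusted p 1446 of all 12784 probe sets were lower and 1947 higher. The largest difference among the 12 regulators was -1.37 ± 0.86 for the mitochondrial transcription factor gene tfb2m.

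The 10 genes outside the rule whose levels followed the mean of the 85 members most closely over the 11 arrays were kgd4, slc25a27, mogat3a, kyat3.2, setd3, hprt1, upb1, mrpl32, pgrmc1 and mrpl45. Pearson's correlation ran from 0.977 for kgd4 to 0.956 for mrpl45 over 11 arrays, as a description, since these arrays fall into groups. The first, kgd4, was at 9.24, 9.35, 8.83 and 9.34 in controls, 9.25, 9.35, 9.23 and 8.88 with azacytidine, and 7.98, 8.26 and 7.41 in mutants.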

How the data were processed

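The authors deposited 1 log2 level for each probe set on each array. Per the submitters' processing notes, GCRMA and Partek were used, with versions not given in the sources used here. GCRMA corrects background, scales arrays to each other and combines the probes of a set, which makes the lowest levels the least certain. The table held 12830 probe sets, and 46 array controls were left out, so 12784 were tested without a further filter. Names came from the platform annotation, with 8994 probe sets carrying 1 symbol, 110 several and 3680 none. Gene IDs matched all 85 members and changed 0 symbols. For 5 members with several probe sets, the highest mean was used.

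Groups came from the sample titles and genotype and agent labels. The tests used limma 3.58.1 in R 4.3.3, with 3 group means over all 11 arrays (8 residual degrees of freedom) and empirical Bayes moderation with a variance trend, 2-sided, with Benjamini-Hochberg adjustment within each comparison. The fit was tested on simulated data. Complex means are described without a test. The number of arrays limits precision.

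Members and gene lists were chosen with earlier results of these data known. Named members were the 8 lowest p-values per direction, the highest level and largest changes in each complex, paralogue pairs, and genes with disagreeing probe sets. From each other list up to 2 called genes per direction were named, or the largest change where 0 were called. Further members are named to account for all calls. Alternatives covered the variance prior, dim probe sets, scaling, array weights, blocks, marker covariates, thresholds and leaving out each array.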

Additional observations from a re-analysis of the deposited data

Results flagged for a closer look

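In groups of 4, single arrays were compared with the gap and range of their group. Of 102 groups tested, 10 held an array standing apart, and about 1 in 20 does so by chance. Azacytidine sample 6 stood apart in 5 of them, low each time. Its complex I mean was 10.86 against 11.14 to 11.19 in the other 3, and it was low for ndufs4 (10.59), ndufv2 (11.09), cox5aa (11.30) and cox7c (12.92). Azacytidine sample 5 was high for atp5mc3b (12.73). Control 1 was low for cox7a2a (11.77 against 12.12 to 12.19), uqcrc2b (10.75) and uqcrh (11.24). Control 2 was high for the assembly factor sdhaf2 (9.24).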

How the results depend on the processing

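With azacytidine against control, 0 of the 85 genes were called under every alternative run. The 27 genes lower in mutants than in controls became 14 without a variance trend, 14 with cyclic loess, 15 with only the 2 groups in the fit, 7 at adjusted p under 0.01, and 0 with either marker covariate, the muscle one chosen after seeing the data. They became 35 with centred arrays and 34 with array weights. Leaving out 1 array gave 10 to 32. For mutants against azacytidine the 38 became 25 without a trend, 59 with centred arrays, 18 at adjusted p under 0.01 and 0 with either covariate (range leaving out 1 array 25 to 42). There 1 gene was higher in some fits, and these genes were named after their values were seen: cox8a with cyclic loess, and cox4i2 without dim probe sets, with array weights and at adjusted p under 0.1. Leaving out an array gave 0 to 1.

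Same-numbered samples had deviations correlated at 0.02, -0.21, 0.03 and 0.00. These few values cannot show whether the numbers pair the samples. With the number as a fixed replicate block, 0 genes were called in any comparison, and 9 of all probe sets in mutants against controls. Only numbers 1, 2, 4 and 6 occur in more than 1 group, so the block leaves far fewer than the 8 residual degrees of freedom of the main fit. Lost power and an effect of pairing cannot be told apart here. With a random block the counts were 27 and 39. The fixed block moved the differences in complex mean to 0.30 (III) and 0.17 (IV) for azacytidine and -0.48 (I) for mutants, both against controls.

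All values here are differences in complex mean between groups. Centring gave 0.16 (V) for azacytidine and -0.74 (I) and -0.50 (V) for mutants, both against controls. For mutants against azacytidine it gave -0.83 (I), -0.66 (III), -0.36 (IV) and -0.65 (V). Cyclic loess gave -0.52 (I) and -0.25 (V) against controls and -0.33 (III) against azacytidine, and quantile normalisation -0.31 (III). The combined and muscle covariates gave -0.09 and -0.08 (V) and, muscle alone, 0.28 (III) for azacytidine. For mutants against controls they gave -0.51 and -0.53 (I), -0.23 and -0.17 (V) and, muscle alone, -0.44 (III). Against azacytidine they gave -0.38 and -0.45 (I), -0.75 and -0.68 (II), -0.66 and -0.72 (III), and -0.15 and -0.09 (V). For single genes, differences against azacytidine turned in sign for cox6b1 (0.10 and 0.16) and ndufb8 (0.05 and 0.00) with the covariates. For ndufb6 (0.18) they did so with probe sets averaged. The cause of these shifts was not tested.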
